A study of Mus musculus with 6 samples.

Results

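The 3 control shRNA arrays, 3 of the 6 in the series, give the transcriptome of mouse embryonic brain cultures that received a lentivirus with a control short hairpin RNA (CTL shRNA). Brains of E12.5 mouse embryos (the age is embryonic days) were dissociated and grown to confluence on dishes coated with PDL and laminin (PDL/Lam in the labels). The cells, labelled NSP, were split and infected overnight, and total RNA was taken 6 days after the virus had been removed. Brains, with no region named, were the source. The mouse strain, the control hairpin's sequence and the share of cells infected are not given in the labels used here, nor is it stated that the 3 samples were separate cultures or embryos. All 3 controls carried the virus, so no uninfected level stands beside them. Every p-value and measure of spread below covers these 3 samples only and may reflect technical variation.

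Values are log2 signals of Affymetrix probe sets. Each probe set is a set of short oligonucleotides designed against a single transcript or a group of similar ones. A step of 1 on this scale is a 2-fold step in signal. Probe sets annotated with exactly 1 gene were kept, and the brightest one by the mean of the 3 control arrays stood for its gene, which left 18194 genes. Signals of different probe sets depend on their probes, so the order of genes given below is an order of signals and not of transcript numbers. The number of arrays, 3, limits the precision of every value.

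Neural stem and progenitor cells of the embryonic brain are radial glia and their relatives. They line the ventricles, divide under Notch, Wnt, FGF and Hedgehog signals, and give rise first to neurons and later to astrocytes and oligodendrocytes. Their position along the brain is written in regional transcription factors, with Hox genes marking the hindbrain and spinal cord and factors such as Emx2 and the Dlx family marking parts of the forebrain. In culture such cells can keep dividing, and they can also mature into neurons and glia.

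A gene was called above background where its mean exceeded, and below where its mean lay under, the highest signal of 27 bacterial control probe sets, 3.15, with an adjusted p under 0.05 (limma, Benjamini-Hochberg over all genes). Of all genes, 13189 (72.5%) were above, 3498 (19.2%) were below and 1507 (8.28%) were undecided. These shares are the background against which each gene list below is read. A second mark shows how loose the first is. It comes from 138 genes of families best known from tissues other than brain (olfactory, vomeronasal and taste receptors, keratin-associated proteins and defensins). Their median signal was 2.13 and the 95th percentile was 4.75, and 16 of these genes were nevertheless called above. That none of them is used in these cells was not tested. A mean over 4.75 was found in 11003 genes (60.5%), and 2188 genes were called above with a mean at or under it. Signals between 3.15 and 4.75 are called faint here. A call below does not show that a transcript was absent. Rps16, a core ribosomal protein gene, had 1 probe set on the array and read 1.91, 1.93 and 1.98 in arrays 1, 2 and 3.

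**Figure D1:**
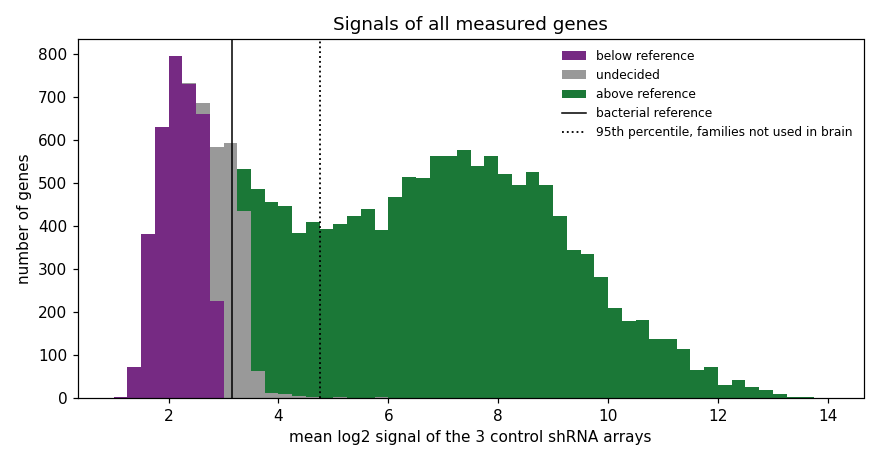
Histogram of the mean log2 signal of the 3 control shRNA arrays (x axis) for 18194 genes (y axis, number of genes), coloured by the call against the bacterial reference. The solid line is the reference at 3.15 and the dotted line the 95th percentile of families best known from tissues other than brain, at 4.75. The genes form a low mode near 2 and a broad one whose members above the reference had a median of 7.14.

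Many of the brightest signals came from genes of protein synthesis, energy metabolism and the cytoskeleton. Pebp1, a phosphatidylethanolamine-binding inhibitor of Raf kinase, led with 13.69, 13.53 and 13.69 in arrays 1, 2 and 3. It was followed by Hnrnpab, an RNA-binding protein of the nucleus, at 13.51 ± 0.01 (mean log2 signal ± SD, n = 3, as in all values of this form below). Malat1, a long nuclear noncoding RNA, read 13.49 ± 0.12, and Vdac1, the pore of the outer mitochondrial membrane, read 13.47 ± 0.06. Tuba1a, the main alpha tubulin of young neurons and progenitors, read 13.42 ± 0.02, and its partner Tubb2b read 12.99 ± 0.02. Tmsb10 and Tmsb4x, which bind actin monomers, read 13.13 ± 0.20 and 13.02 ± 0.08. Hmgn1, a protein that loosens nucleosomes, read 13.03 ± 0.06.

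The rest of the 25 brightest genes were largely of the same kinds. Rpl41, Rpl13a, Rpsa, Rps3, Rpl35, Rpl38, Rplp2, Rps29 and Rps18 encode parts of the ribosome, and they spanned 12.84 for Rps18 to 13.13 for Rpl41. Eef1a1, the elongation factor that brings aminoacyl-tRNA to the ribosome, read 12.93 ± 0.04. Cox5b and Ndufb7, subunits of the respiratory chain, read 13.01 ± 0.11 and 12.91 ± 0.08. The others were Selenow, a small selenoprotein, at 13.08, Ywhae, a 14-3-3 adaptor, at 12.93, Tkt, transketolase of the pentose phosphate pathway, at 12.87, and AY036118, a transcript known only by its sequence record, at 13.14. Among the 100 brightest genes were 23 of the 49 measured genes of cytosolic ribosomal proteins. Genes named for the respiratory chain and ATP synthase gave 15 of 90. Genes named for translation factors gave 3 of 58, tubulins 2 of 14 and heterogeneous nuclear ribonucleoproteins 1 of 19. Families were taken from the opening letters of the symbol, so genes of similar name that are not subunits or factors can be counted. Of the ribosomal protein genes 44 were above, with a median over all 49 of 12.14, and Rpl37, Rpl39l, Rpl3l, Rps16 and Rps4l were below.

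The order at the top rests on the choice of probe set. When each gene was given the average of its probe sets, 11 of the 25 stayed among the 25 brightest. When probe sets whose suffix marks shared or family-wide matching were left out, 7 stayed. Tmsb10 shows the size of this, with 13.13 from its brightest probe set and 2.34 without such probe sets.

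Rest, the target of the other hairpin in the series and a repressor of neuronal genes outside neurons, was well above background in the controls. Its brightest probe set read 8.92, 8.75 and 8.90, a mean of 8.85 that lay higher than 84.0% of genes. The 3 arrays differed by 0.16 at most. The average of its 4 probe sets was lower, at 6.33.

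Progenitor markers were read beside the label of the cells. The list was chosen with earlier results of these data known, so it gives no independent check of that label. Every measured gene of the astrocyte and oligodendrocyte precursor lists below was above too, so the count does not set progenitors apart. All 24 measured genes of the neural progenitor and radial glia list were above, none was below, and all 24 had a mean over 4.75, with a median of 10.13 against 5.91 over all genes. Fabp7, the brain lipid-binding protein of radial glia, read 12.88, 12.84 and 12.45 in arrays 1, 2 and 3, and lay 9.57 ± 0.12 (SE) above the reference. Vim, the intermediate filament vimentin, read between 12.46, in array 2, and 12.54, in array 3. Sox2, the transcription factor that keeps neural stem cells undifferentiated, read 10.79, 10.74 and 10.93. For these 3 genes the arrays lay within 0.43 of each other.

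Id4, an inhibitor of basic helix-loop-helix factors, read 12.37 ± 0.27, and Pax6, a factor of dorsal radial glia, read 9.28 ± 0.27. Nes, which encodes nestin, stood apart from the other first-listed markers. It read 8.39 and 8.57 in arrays 1 and 2 but 6.87 in array 3, and it was the sole member of the list that was lower in array 3 than in both others by more than 1 log2. The dimmest members were Hopx at 5.05 and Hes1 at 4.87, both chosen for mention after their values were seen. In a bulk sample fewer cells of a type and less RNA per cell cannot be told apart, and this holds for every level below.

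Many genes of neurogenesis were above too, with gaps. Of 17 measured genes of intermediate progenitors and neurogenic factors 14 were above and 2 below, with a median of 7.05 against 5.91 over all genes. With 17 genes the share above, 82.4%, is close to the 72.5% of all genes. Dll1, the Notch ligand on cells that are about to become neurons, read 10.65, 10.36 and 10.81. Myt1, a zinc finger factor of early neurons, read 10.48 ± 0.26, Hes6, which opposes Hes1, 9.87 ± 0.37, and Insm1, a factor of basal progenitors, 8.42 ± 0.28. Neurog2, a proneural factor of the dorsal forebrain, was dimmer at 5.94, 6.84 and 6.78, and Neurog1 was faint at 4.02 ± 0.10. The markers that define cortical intermediate progenitors and their deep-layer daughters were not called above. Eomes (Tbr2) read 2.79, 2.72 and 3.23 and was undecided. Tbr1 read 1.47, 2.44 and 2.25 and was below, as was Nhlh2 at 2.76 ± 0.29. Without control array 1, or without control array 2, 1 member in place of 2 was called below.

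General neuronal markers were above in 23 of 24 cases, with a median of 8.46. Ncam1, the neural cell adhesion molecule, read 10.75, 10.76 and 11.32. Map2, the microtubule-associated protein of dendrites, read 10.50, 10.16 and 10.36. Dcx, doublecortin of migrating young neurons, read 9.64, 9.68 and 10.49, so that array 3 lay highest. Tubb3, the neuronal beta tubulin, was even across arrays at 9.44 ± 0.11, and Elavl3, a neuronal RNA-binding protein, read 9.11 ± 0.30. Rtn1, a reticulon of neuronal endoplasmic reticulum, read 10.09 ± 0.18. Rbfox3, which encodes the NeuN antigen of maturing neurons, read 6.58 ± 0.11. The neurofilament subunits were graded. The heavy chain Nefh was the sole member below, at 2.53, 2.52 and 2.27, with an adjusted p of 0.00137 (limma), while the medium chain Nefm read 4.26 and the light chain Nefl 5.50.

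Genes that fix a transmitter were mostly dim. Of 29 measured genes 12 were above, 10 were below and 6 had a mean over 4.75, with a median of 3.34. The vesicular glutamate transporter genes Slc17a6 and Slc17a7 read 1.92 ± 0.11, which was below, and 2.87 ± 0.35, which was undecided. Gad1, the main enzyme of GABA synthesis, read 5.85, 6.09 and 6.35. Gad2, its partner at nerve endings, was undecided and varied, at 3.78, 3.14 and 4.67. The highest readings were those of Pvalb, a calcium buffer of fast-spiking interneurons, at 6.39, 7.19 and 8.20, and of Reln, the extracellular protein reelin, at 6.64 ± 0.38. Array 3 was highest for Gad1, Gad2 and Pvalb and lowest for Reln. The enzymes Chat, Th and Tph2, which make acetylcholine, catecholamines and serotonin, were below, at 2.43, 2.67 and 1.87. Genes of monoamine handling in the same list did not all share this. Slc18a2, the vesicular monoamine transporter, was above at 4.91, 5.54 and 6.22, and Dbh, which makes noradrenaline, was faint at 3.85 ± 0.09, while the dopamine transporter gene Slc6a3 and the choline transporter gene Slc5a7 were undecided.

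Astrocyte genes were on throughout. All 25 measured markers were above and 24 had a mean over 4.75, with a median of 9.83. Gja1, the gap junction protein connexin 43, read 11.76, 11.41 and 12.01. Glul, glutamine synthetase, read 11.60 ± 0.21, Atp1b2, a glial subunit of the sodium pump, 11.44 ± 0.28, and Slc1a2, the glutamate transporter GLT-1, 10.60 ± 0.06. Gfap, the filament protein of mature and reactive astrocytes, was more uneven, at 9.93, 8.85 and 10.72, with array 2 lowest and array 3 highest. Aqp4, the water channel of astrocyte endfeet, read 9.58, 8.70 and 9.28. Aldh1l1, a folate enzyme used as a pan-astrocyte marker, read 10.30, 9.51 and 8.95, so that its highest array was the first. S100b read 8.19 ± 0.36. Gjb6, connexin 30, was the one faint member at 3.97. Radial glia use several genes of this list too, so the list does not separate them from astrocytes.

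Oligodendrocyte precursor genes were likewise on, and bright. All 13 measured markers were above and none had a mean under 8.54, with a median of 9.61. Sox8 led at 11.53 ± 0.11. Olig1 and Olig2, the factors that specify the lineage, read 11.45, 11.36 and 11.06 and 10.24, 10.20 and 10.05 in arrays 1, 2 and 3. Bcan, the matrix proteoglycan brevican, read 10.88 ± 0.23. Pdgfra, the receptor through which precursors are driven to divide, read 9.12, 8.83 and 8.82, and Cspg4, the NG2 proteoglycan, read 8.83, 9.18 and 8.48. Sox10, which directs the lineage towards myelin, read 8.22 and 8.24 in arrays 1 and 2 and 9.49 in array 3, more than 1 log2 above both.

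Myelin genes followed, from bright to background. Of 15 measured genes 13 were above and 2 below, with a median of 6.31. The share above was 86.7%, beside 72.5% of all genes. Bcas1, a gene of newly forming oligodendrocytes, read 12.16, 11.90 and 12.75. Cnp, an enzyme of uncompacted myelin, read 11.77, 11.73 and 12.20. Mbp, myelin basic protein, read 11.49, 11.34 and 12.15. Array 3 was highest for these 3 genes. Mobp, a later myelin protein, read 6.98, 5.43 and 8.09, and Mag, the adhesion protein of the innermost wrap, read 5.35, 5.55 and 6.34. Mog, a protein of the outermost myelin layer and a sign of full maturation, was at background with 2.79, 2.75 and 2.79, and so was Ermn at 2.45 ± 0.24. Neither was called below when control array 1 was left out, and 1 was when control array 2 was.

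**Figure D2:**
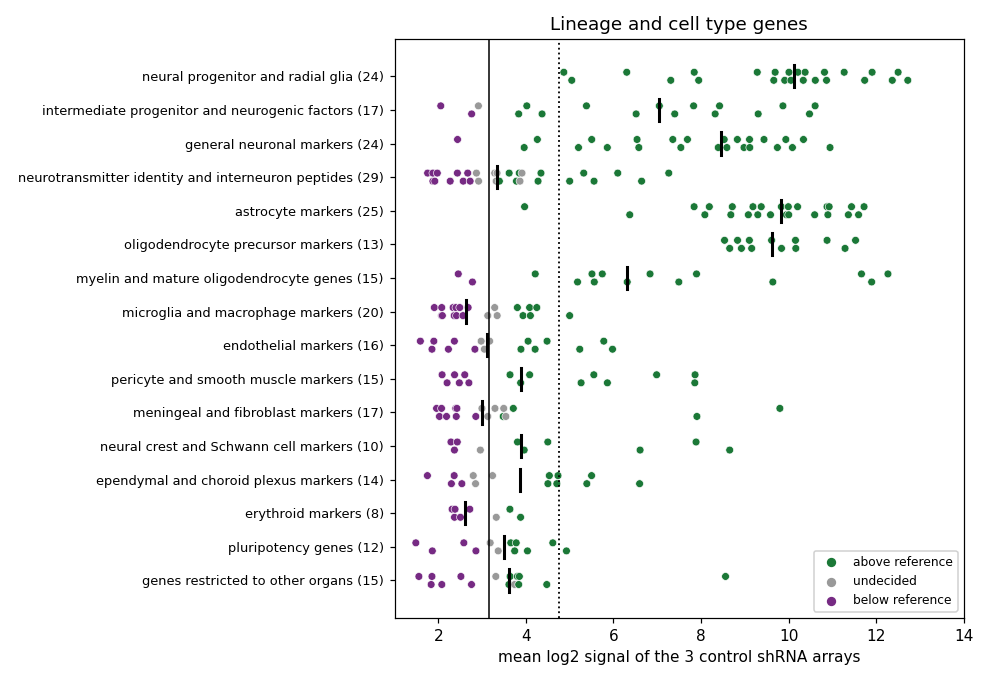
Each point is 1 gene, placed by its mean log2 signal over the 3 control shRNA arrays (x axis) in the row of its list (number of measured genes in brackets), and coloured by its call. The vertical bars are list medians, the solid line the bacterial reference at 3.15 and the dotted line 4.75. Progenitor, astrocyte and oligodendrocyte precursor genes lie to the right with medians of 10.13, 9.83 and 9.61, and microglia and erythroid genes lie around the reference.

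Markers of other cell types and organs were mostly near background. Over the 127 genes of 9 such lists, ependymal and choroid plexus genes included, 54 were above, 53 below, and the median was 3.24. Of 20 microglia and macrophage genes 6 were above and 11 below, with a median of 2.62. Aif1 (Iba1), Itgam (CD11b) and Ptprc (CD45) were below, at 2.40 ± 0.15, 2.41 ± 0.26 and 2.36 ± 0.16. Cx3cr1, the fractalkine receptor of microglia, was undecided at 3.29 ± 0.12. The members above were faint apart from Cd68, a lysosomal protein, which read 4.61, 5.72 and 4.67. They were Spi1 at 4.25, Fcer1g at 4.10, Csf1r at 4.08, Laptm5 at 3.93 and Trem2 at 3.80.

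Of 16 endothelial genes 7 were above and 6 below, with a median of 3.11. Cdh5, the cadherin of endothelial junctions, was below at 2.37 ± 0.14, and Pecam1, another endothelial adhesion gene, was undecided at 3.17 ± 0.06. Tie1, a receptor kinase of endothelium, was below at 2.23 ± 0.08. Erg, Esam, Eng and Kdr, also endothelial, were above but faint, at 4.48, 4.21, 4.05 and 3.89. The highest were Ramp2, a receptor activity-modifying protein, at 5.98 ± 0.41, Egfl7 at 5.78 ± 0.32 and Plvap, a protein of fenestrated vessels, at 5.23 ± 0.54. Of 8 erythroid genes 2 were above, both faint, and 5 below, or 3 without control array 1. The globin genes Hba-a1, Hbb-y, Hbb-bh1 and Hba-x read 2.31, 2.72, 2.50 and 2.37.

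Smooth muscle and matrix genes were mixed. Of 15 pericyte and smooth muscle genes 9 were above and 6 below, with a median of 3.88. Notch3, a receptor of mural cells that radial glia and astrocytes can also carry, read 8.36, 8.49 and 6.73. Myl9, a myosin light chain, read 7.86 ± 0.37, Tagln 5.26 ± 0.54 and Pdgfrb 5.86 ± 0.18. Acta2, smooth muscle actin, read 8.49 and 8.40 in arrays 1 and 2 and 4.07 in array 3, from a probe set whose suffix marks matching to several transcripts. Its other probe sets reached a mean of 2.20, so the reading of Acta2 depends on 1 probe set. Rgs5, a pericyte gene, was faint at 3.64 ± 0.17.

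Of 17 meningeal and fibroblast genes 4 were above and 8 below, with a median of 2.99. Igfbp2, a binding protein of insulin-like growth factors, read 10.42, 10.90 and 8.08, with array 3 lower by more than 1 log2. Fn1, fibronectin, read 7.45, 8.71 and 7.56. Both are also made by other cells, neural cells and cultured cells among them. The other members above, Col1a1 and Mgp, were faint at 3.71 and 3.48. The fibrillar collagen gene Col3a1 and the proteoglycan gene Lum were below at 2.40 ± 0.06 and 2.19 ± 0.18, and Dcn, decorin, was undecided at 3.13 ± 0.10.

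Of 10 neural crest and Schwann cell genes 6 were above and 3 below, and the bright ones were Sox10, which oligodendrocytes share, Egr2, and Mitf, a factor of pigment cells that is expressed more widely in other forms, at 6.61 ± 0.05. Foxd3, Tfap2a and Cdh19, which mark crest and its glia, were below at 2.37, 2.43 and 2.29. Ependymal and choroid plexus genes split 7 above and 4 below over 14. Foxj1, the master factor of motile cilia, read 6.84, 7.21 and 5.74, while Ttr, the chief secreted protein of choroid plexus, was faint at 4.53 ± 0.02 and Folr1 was below at 2.36 ± 0.18. Of 12 pluripotency genes 6 were above and 4 below, or 2 below without control array 1. Nanog read 3.65 ± 0.31, Pou5f1 3.37 ± 0.28 and Zfp42 1.49 ± 0.22, and the highest was Dppa5a at 4.93.

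Of 15 genes restricted to other organs 7 were above and 6 below against the same reference. Alb, Apoa2 and Ins2, of liver and pancreas, were called above with faint means of 3.80, 3.83 and 4.48. Prm1, a sperm protamine, was the exception at 8.49, 8.45 and 8.75. Its other probe sets reached a mean of 2.19 at most, so the bright reading comes from 1 probe set.

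Regional identity was patchy, and the posterior end of the axis was near background. Over the 105 genes of the regional lists 38 were above and 47 below, with a median of 3.00, so the share above was 36.2% against 72.5% over all genes. Dorsal telencephalon factors gave 10 above and 2 below of 14, with a median of 4.68. The share above, 71.4%, is close to that of all genes, and the median lies under the 5.91 of all genes. Nr2f1 and Nr2f2 (COUP-TFI and COUP-TFII), which pattern the cortex and are used elsewhere too, read 10.04, 10.29 and 10.23 and 8.06, 8.22 and 8.32. Emx2, a factor of the dorsal and caudal telencephalon, read 6.95, 6.72 and 6.80. Lhx2, which keeps cortical identity, read 7.84 ± 0.09 and Dmrta2, a factor of the medial pallium, 7.83 ± 0.22.

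Emx1, the close relative of Emx2 that is restricted to the dorsal telencephalon, was faint at 3.63, 3.24 and 3.52, with an adjusted p of 0.0488 (limma). Wnt8b, of the hippocampal primordium, was below at 2.69 ± 0.15, as was Tbr1, and without control array 1 the count below was 1. Genes of cortical neurons varied between arrays, and they were chosen after their values were seen. Neurod2 read 3.80, 5.38 and 6.45 and Neurod6 read 2.92, 3.84 and 5.15, with array 3 highest for both.

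Ventral telencephalon factors gave 10 above and 3 below of 14, with a median of 4.42. Here too the share above, 71.4%, is close to the 72.5% of all genes, and the median lies under theirs. Dlx1 and Dlx2, the linked homeobox genes of the ganglionic eminences that lead to GABAergic neurons, read 4.95, 5.07 and 7.56 and 6.53, 5.90 and 8.02. Both were higher in array 3 than in the other arrays by more than 1 log2. Dlx5 was faint at 3.61, 3.77 and 4.47, and Dlx6 was below at 2.31 ± 0.30. Foxp1, of striatal neurons among others, was the highest at 7.16 ± 0.20, and the eminence factor Gsx1 was faint at 4.41 ± 0.07. Lhx8 and Isl1, of cholinergic and striatal neurons, were below at 1.72 ± 0.23 and 2.22 ± 0.08.

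Diencephalon and eye field factors gave 6 above and 5 below of 16, with a median of 3.08. Tcf7l2, an effector of Wnt signals in the thalamus that oligodendrocytes also express, read 10.76, 10.64 and 11.36. Nkx6-2, another gene shared with oligodendrocytes, read 5.84 ± 0.17, Irx3 read 5.17, 6.26 and 4.90, and Otp, a hypothalamic factor, was faint at 4.37 ± 0.15. The eye field gene Rax was undecided at 2.99 ± 0.12, and Six6, Sim1, Foxb1, Hesx1 and Foxd1 were below.

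Midbrain and isthmus factors gave 3 above and 8 below of 15, with a median of 2.54. Nr4a2, of dopaminergic neurons and also an immediate early gene, read 6.06 ± 0.25, Otx2, of forebrain and midbrain, 5.12, 4.91 and 5.94, and Fgf8, the organiser signal, was faint at 3.93 ± 0.19. En1 was below at 2.01 ± 0.23 and En2 and Pax5 were undecided at 2.99 and 3.43. Hindbrain and rhombic lip factors gave 2 above and 8 below of 13. The 2 were Egr2, which is also an immediate early gene and read 6.66, 6.06 and 10.94, and Zic1, which read 7.09, 5.70 and 4.49, with array 1 highest and array 3 lowest. Gbx2 and Atoh1 were below at 2.28 ± 0.19 and 2.75 ± 0.26. Without control array 1 the counts below were 5 for the midbrain list and 5 for the hindbrain list.

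Hox genes were nearly silent by signal. Of 10 anterior genes, of groups 1 to 4, 9 were below and Hoxa3 alone was above, at 3.28, 3.70 and 3.57. That call was lost without control array 2 or without control array 3. Hoxa2, Hoxa4 and Hoxb1 read 1.48, 1.91 and 1.71. Of 23 posterior genes, of groups 5 to 13, 6 were above and 12 below, with a median of 2.60. Those above were faint apart from Hoxc6, which read 4.84, 4.75 and 4.95, and the next was Hoxa7 at 4.29 ± 0.06. With 4.75 as the reference no Hox gene of either list was above.

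**Figure D3:**
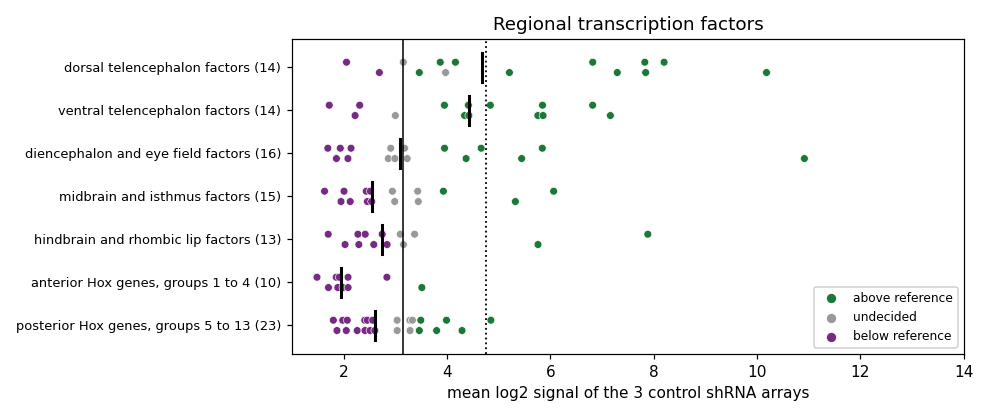
Regional transcription factors, each point 1 gene at its mean log2 signal over the 3 control shRNA arrays (x axis), in rows by list and coloured by call. The bars are medians, the solid line is the reference at 3.15 and the dotted line 4.75. Medians run from 4.68 for dorsal telencephalon to 1.95 for the anterior Hox genes, which lie below the reference apart from 1.

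Receptor families differed in median signal, from 7.63 for the Notch and Delta family to 2.63 for GABA and glycine receptors. Acetylcholine receptors and dopamine, serotonin and adrenergic receptors also had medians under the reference, at 2.96 and 3.02. Over 159 genes 107 (67.3%) were above, against 72.5% of all genes. Below were 30, or 18 without control array 1, and the median was 5.03. Among receptor tyrosine kinases 22 of 28 were above and 17 had a mean over 4.75, with a median of 6.13. The share above, 78.6%, is near the 72.5% of all genes, whose median was 5.91. Ntrk2, the receptor of the neurotrophin BDNF, whose short form astrocytes carry, led with 11.98, 11.84 and 12.03. The FGF receptor genes Fgfr3, Fgfr2 and Fgfr1 read 10.21 ± 0.64, 10.19 ± 0.22 and 7.85 ± 0.09, and Fgfr4 was below at 2.61 ± 0.14, though not without control array 1. Egfr, the receptor for the mitogen EGF used to expand neural stem cells, read 9.50, 9.27 and 9.13. Fgfr3 was lower in array 3, at 9.47 against 10.52 and 10.63.

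Of 10 genes of the Notch and Delta family, through which neighbouring progenitors signal, 8 were above and none was below, with a median of 7.63. With 10 genes this share is close to the 72.5% of all genes, and so are those of the Wnt and BMP receptors that follow. Notch2 read 11.05, 10.52 and 11.21, and Notch1 10.54, 10.39 and 10.07. Dner, a ligand-like protein of neurons, was even at 10.71 ± 0.02, while Notch4, an endothelial receptor, was undecided at 3.42 ± 0.26. Of 15 Wnt receptor genes 13 were above, with Fzd3, Fzd2 and Fzd7 highest at 9.39 ± 0.09, 9.28 ± 0.23 and 8.95 ± 0.26. Of 13 receptors for BMP, TGF-beta and activin 11 were above. Bmpr2 and Bmpr1a read 9.65 ± 0.35 and 9.64 ± 0.31, and Acvr1c and the endothelial Acvrl1 were below at 1.95 ± 0.10 and 2.22 ± 0.30.

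Of 9 measured Hedgehog receptors and Gli factors 8 were above (88.9%, beside 72.5% of all genes), with a median of 6.30. Ptch1, the Hedgehog receptor and itself a target of the pathway, read between 10.69, in array 3, and 11.16, in array 1, Smo, the transducer, 9.73 ± 0.16, and Gas1, a coreceptor, 8.98, 9.12 and 9.93. Hhip, a decoy receptor and target, was faint at 4.63 ± 0.19. Gli1, another target, was undecided at 2.98 ± 0.17 and was chosen after its value was seen. Of 9 cytokine receptors 8 were above, the same share. Il6st (gp130), through which LIF and CNTF act on astrocyte formation, read 9.04, 8.80 and 9.73, and its partners Lifr and Cntfr read 7.93 ± 0.15 and 7.98 ± 0.50. Osmr was below at 2.62 ± 0.38, but not without control array 1 or without control array 2.

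Of 16 ionotropic glutamate receptor genes 14 were above and 13 had a mean over 4.75, with a median of 5.86. The share above was 87.5%, beside 72.5% of all genes, whose median was 5.91. Gria2, the subunit that makes AMPA receptors impermeable to calcium, read 9.64, 9.53 and 10.64, with array 3 highest. Grik3, of kainate receptors, read 7.35 ± 0.52 and Gria3 7.15 ± 0.32, and Gria1 read 5.78 ± 0.40. Gria4 read 5.55, 5.18 and 7.09 and was higher in array 3 by more than 1 log2. Grin2a, the mature NMDA receptor subunit, was below at 2.61 ± 0.06, and Grik1 was undecided. Among 6 metabotropic genes Grm5 and Grm3, both known from astrocytes and their precursors, were bright at 9.44, 9.76 and 8.57 and at 8.19, 8.63 and 8.19. Grm4 was faint at 4.72 ± 0.27, Grm2 undecided and Grm8 below at 2.47 ± 0.23. Without control array 1 neither Grin2a nor Grm8 was called below, and without control array 3 the metabotropic count below was 2.

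Of 19 GABA and glycine receptor genes 6 were above and 11 below, with a median of 2.63. Gabbr1, of the metabotropic GABA receptor, read 11.30, 11.36 and 10.72, far from the rest of the list. Glrb, the beta subunit of glycine receptors, read 7.73 ± 0.51 and Gabrg1, a glial gamma subunit, 6.86 ± 0.11. Of the measured alpha subunits of GABA-A receptors, Gabra2 read 5.02 ± 0.47, Gabra3 was undecided at 3.22, and Gabra4 and Gabra5 were below at 2.39 and 1.92. Acetylcholine receptors gave 6 above and 6 below of 15, or 1 below without control array 1, and were led by the nicotinic partners Chrna4 at 7.15 ± 0.52 and Chrnb2 at 5.58 ± 0.37. Dopamine, serotonin and adrenergic receptors gave 8 above and 7 below of 19. Htr3a, the ion channel receptor for serotonin, read 6.35, 6.27 and 6.61, while Drd4 and Drd1 were at 4.77 and 4.76 and Drd2 and Drd3 were below at 1.81 and 2.06.

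**Figure D4:**
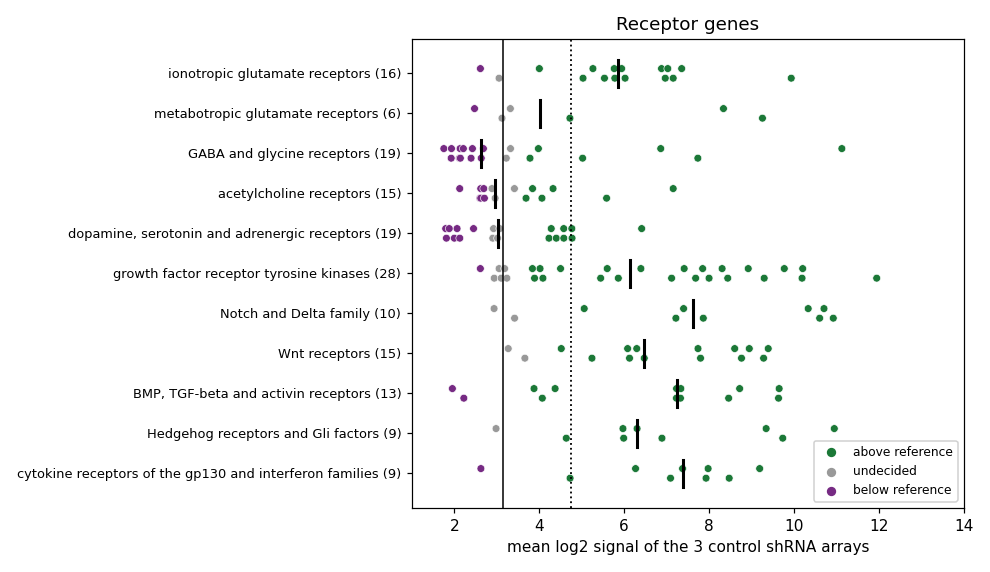
Receptor genes, each point 1 gene at its mean log2 signal over the 3 control shRNA arrays (x axis), in rows by family and coloured by call. The bars are medians, the solid line is the reference at 3.15 and the dotted line 4.75. The Notch and Delta family has the highest median, 7.63, and GABA and glycine receptors the lowest, 2.63, with Gabbr1 far to the right.

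Interferon response genes answer foreign nucleic acid, such as that of a virus. Of 17 such genes 9 were above and 6 below, or 2 below without control array 1, with a median of 3.82. None exceeded the 5.34 ± 0.10 of Bst2, an antiviral membrane tether. Ddx58 (RIG-I, a sensor of viral RNA) read 5.15 ± 0.10 and Ifi27 5.12 ± 0.03. The effector genes Mx1 and Ifit1 were below at 2.28 ± 0.17 and 2.44 ± 0.33. Uninfected cells, which would show the level without virus, were not among the samples.

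The arrays were close to each other for most genes. Over the 13189 genes above, the median SD was 0.21, with quartiles of 0.12 and 0.34, and 1195 genes (9.06%) had a range over 1. The evenest of the 1000 brightest genes were Rtraf, an RNA-binding protein, Ube2d2a, a ubiquitin-conjugating enzyme, Actb, cytoplasmic actin, Prr13 and Psma2, a proteasome subunit. Their SD ran from 0.0036 for Rtraf to 0.010 for Psma2. Arrays 1 and 2 correlated at 0.995 over all genes, arrays 1 and 3 at 0.983 and arrays 2 and 3 at 0.981 (Pearson, across genes, which are not independent replicates). The median size of the difference of genes above was 0.161 between arrays 1 and 2, 0.274 between 1 and 3 and 0.308 between 2 and 3. Without array 3 the median SD was 0.113.

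Array 3 stood apart. Of the genes above, 387 (2.93%) were lower in array 3 than in both other arrays by more than 1 log2, and 186 (1.41%) were higher. Array 1 was lower in 15 genes (0.114%) and higher in 13 (0.0986%), and array 2 was lower in 11 (0.0834%) and higher in 29 (0.22%). With only arrays 2 and 3 compared, array 3 was lower in 591 genes and higher in 315. Each difference between single arrays has no replicate check, so none has a p-value. All 20 genes with the widest range had array 3 as the odd one. Other probe sets of the same genes were compared only where they lay above the bacterial reference, so those at background were left out. Such a probe set existed for 187 of the 387 lower genes and for 105 of the 186 higher genes. Those compared mostly went the same way. Of 285 such probe sets of the lower genes 269 were lower in array 3, 150 of them by more than 1 log2. Of 215 of the higher genes 212 were higher, 90 by that much.

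The genes lower in array 3 included those of dividing cells. All 22 measured cell cycle genes were above in the mean of the arrays, with a median of 7.77. Their mean signal was 8.35 in array 1, 8.56 in array 2 and 6.49 in array 3. Array 3 was the lowest for 21 of 22, beside 41.4% of all genes, and lower by more than 1 log2 for 15, with a median difference of -2.21 from the mean of the other 2 arrays. Mki67, which encodes the proliferation antigen Ki-67, read 10.34, 10.55 and 7.75. Top2a, the topoisomerase that untangles chromosomes, read 8.15, 8.10 and 4.58. Cdk1, the kinase that starts mitosis, read 8.77, 8.96 and 5.92, and its partner Ccna2, cyclin A, read 10.19, 9.99 and 6.93. In each case arrays 1 and 2 lay together and array 3 far under them.

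A split of the list by function, made after its values were seen, placed the gap mainly in mitosis. All 10 mitotic genes were lower in array 3 by more than 1 log2, and their mean signal was 8.15, 8.27 and 5.36. Of 9 DNA replication genes 9 were lowest in array 3 but 4 by more than 1 log2, with means of 8.56, 8.69 and 7.29. Pcna, the sliding clamp of the replication fork, read 11.08, 11.16 and 10.49, and Mcm7, of the replicative helicase, 10.88, 10.70 and 9.98. Mcm5, of the same helicase, had the widest gap of the replication genes at 8.74, 9.01 and 5.39. Averaged over its probe sets Mcm5 had a mean of 5.69, against 7.71 from the brightest. Of 3 G1 cyclin genes 2 were lowest in array 3, 1 of them by more than 1 log2. The means of these 3 genes were 8.43, 9.17 and 7.88. The remaining G1 cyclin, Ccnd2, did not share the pattern, at 10.17, 10.34 and 10.19. Other probe sets above the bacterial reference existed for 17 of the 22 genes of the whole list. Of these 32 probe sets 31 were lower in array 3, with a median difference of -1.10.

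Mitotic genes with a wide range lay outside the list too. Cdc25c, the phosphatase that activates Cdk1, read 8.30, 8.34 and 4.43. Spc24, of the kinetochore, read 8.25, 8.41 and 4.73, Ube2c, of the machinery that destroys cyclins, 9.57 in array 1 and 6.45 in array 3, and Ccnb2, cyclin B2, 8.06 in array 1 and 4.55 in array 3. Array 2 lay within 0.43 of array 1 for both. Cdc20, which directs that machinery, read 9.89, 9.91 and 6.48, and Cdca3 8.90, 8.77 and 5.47. The reading of Cdca3 depends on its probe set. Its mean was 7.71 from the brightest, 3.69 averaged over its probe sets and 1.59 without those of shared matching. Tcf19, not classed as mitotic here, read 6.18, 6.80 and 3.29. Acta2 and Car3, a carbonic anhydrase, which are not cell cycle genes, were among the same 20, and Car3 read 8.33, 7.96 and 4.67. Averaged over its probe sets Car3 had a mean of 4.15, against 6.98 from the brightest.

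Promoters of genes that peak in mitosis are known to carry CCAAT boxes, bound by NF-Y, and a cell cycle genes homology region (CHR), while replication genes are known for E2F sites. The 250 bases before the start site were searched on both strands for the letters CCAAT, for TTTGAA or TTCGAA as the CHR, and for TTTCGCGC, TTTGGCGC or TTTCCCGC as E2F letters. A promoter was found for 17 of the 22 cell cycle genes in a RefSeq table of build GRCm38.p6. Counts are of genes, and a gene was counted where any window listed for it held the letters. Of the 17, 14 (82.4%) held CCAAT, against 37.5% of all 27025 genes with a promoter and 40% of measured genes above that had one. The CHR letters were in 5 (29.4%), against 19.6% of all genes with a promoter and 14.2% of those above. E2F letters were in 4 (23.5%), against 1.78% and 3.38%. By the split above, CCAAT was in 7 of 8 mitotic and 7 of 8 replication genes with a promoter, so it did not separate them. The CHR letters were in 3 of 8 and 2 of 8, and E2F letters in 1 of 8 and 3 of 8. Of the 312 genes with a promoter that were lower in array 3 by more than 1 log2, 58.7% held CCAAT, 20.5% the CHR letters and 6.09% E2F letters. A match is a run of letters and not evidence that a factor binds there.

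The 3 cell cycle genes with the widest gap between array 3 and the others that also had a promoter in the table show how unlike these windows can be. They are printed 5′ to 3′ on the strand of the gene, with each matched letter run in capitals. Top2a (chr11:99024190-99024439, minus strand) held 6 CCAAT letter runs, read as CCAAT or as its reverse complement ATTGG, and 4 CHR runs. Mcm5 (chr8:75109259-75109508, plus strand) held 2 CCAAT runs and 2 E2F runs, one on each strand, that overlap in 1 block of capitals. Birc5 (chr11:117848987-117849236, plus strand), which encodes survivin of the mitotic spindle and read 9.02, 9.10 and 6.02, held none of the letters searched.
Top2a: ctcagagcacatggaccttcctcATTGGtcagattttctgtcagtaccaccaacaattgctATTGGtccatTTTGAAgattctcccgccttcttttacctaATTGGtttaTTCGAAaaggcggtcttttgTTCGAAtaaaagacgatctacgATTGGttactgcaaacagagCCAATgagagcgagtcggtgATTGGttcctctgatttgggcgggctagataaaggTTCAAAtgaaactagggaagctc
Mcm5: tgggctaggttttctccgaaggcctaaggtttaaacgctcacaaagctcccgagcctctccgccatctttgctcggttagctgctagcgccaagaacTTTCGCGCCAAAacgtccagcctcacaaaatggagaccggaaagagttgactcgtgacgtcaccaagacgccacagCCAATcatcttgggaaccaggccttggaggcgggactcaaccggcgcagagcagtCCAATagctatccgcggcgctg
Birc5: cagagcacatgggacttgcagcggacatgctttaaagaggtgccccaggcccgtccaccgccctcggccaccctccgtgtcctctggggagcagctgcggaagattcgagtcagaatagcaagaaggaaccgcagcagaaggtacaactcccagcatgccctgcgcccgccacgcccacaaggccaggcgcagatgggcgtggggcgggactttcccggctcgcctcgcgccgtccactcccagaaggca

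The genes higher in array 3 included immediate early genes, the first genes that cells turn on after a stimulus. The list of 38 measured genes was drawn up after the widest ranges had been seen. Of these 35 were above, and their mean signal was 6.27, 6.48 and 7.79. Array 3 was the highest for 31, beside 36.4% of all genes, and among the 35 above it was higher by more than 1 log2 for 13. Fos, a subunit of the AP-1 factor, read 7.24, 6.75 and 12.16, the widest range of any gene above. Egr1, a zinc finger factor, read 9.27, 9.52 and 12.99, and its relative Egr2 read 6.66, 6.06 and 10.94. Zfp36, which shortens the life of cytokine transcripts, read 7.29, 7.27 and 11.16, and Ier2 4.38, 4.50 and 7.87.

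Jun, the partner of Fos in AP-1, read 9.92, 10.18 and 11.82. Fosb, outside those 13 because it was undecided against the reference, read 4.11, 3.83 and 9.46, also far higher in array 3. The gap was not shared by every member. Jund, another AP-1 subunit, read 11.53, 11.70 and 12.01. Myc, chosen after its values were seen, read 9.14, 9.21 and 9.01, and Npas4, a factor induced by activity in neurons, was at background in all 3, at 1.97 ± 0.05. Others of the 20 widest genes are known from responses to cytokines or stress. Socs3, a brake on gp130 signalling, read 5.38, 5.15 and 10.02, Cxcl1, a chemokine, 4.10 and 4.14 in arrays 1 and 2 and higher in array 3 by a range of 3.90, and Cebpd 4.30, 5.88 and 7.79. Ahnak, a large scaffold protein, read 5.73, 5.03 and 8.70. Averaged over its probe sets Ahnak had a mean of 4.245, against 6.49 from the brightest.

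**Figure D5:**
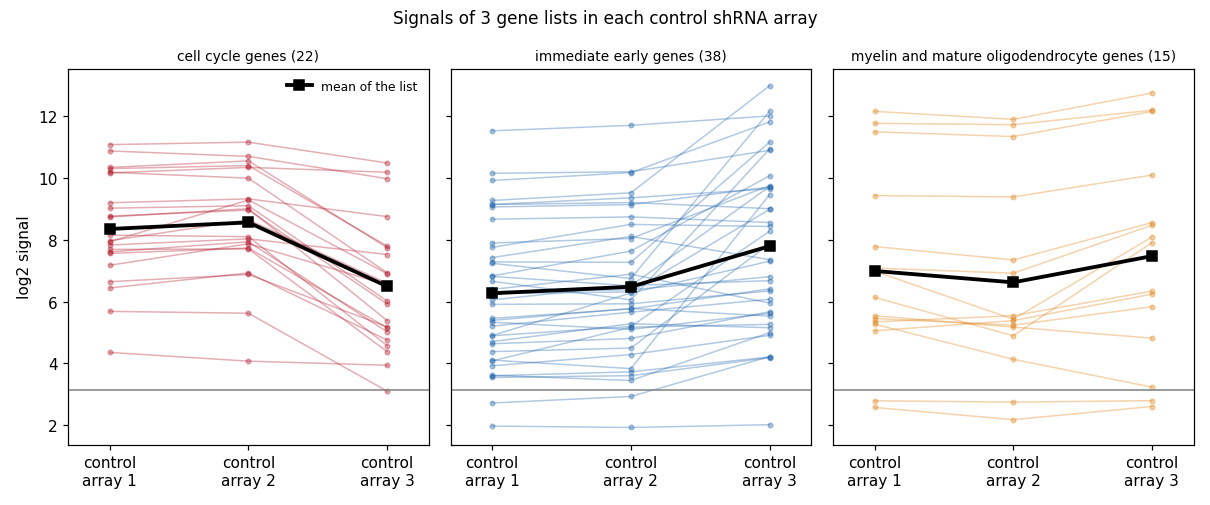
Log2 signal (y axis) of each gene of 3 lists in control arrays 1, 2 and 3 (x axis), with 1 thin line per gene and the list mean as black squares. The grey line is the reference at 3.15. Cell cycle means were 8.35, 8.56 and 6.49, immediate early means 6.27, 6.48 and 7.79, and myelin means 6.99, 6.62 and 7.47.

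Lists of lineage genes had means that lay closer together across the arrays. The mean signal of progenitor genes was 9.73, 9.71 and 9.77, that of astrocyte genes 9.61, 9.52 and 9.40, and that of neuronal genes 7.55, 7.73 and 7.84. Oligodendrocyte precursor genes had means of 9.71, 9.67 and 9.86. Myelin genes lay highest in array 3 in 13 of 15 cases, and in 3 of them (Enpp6, Mal and Mobp) by more than 1 log2. Mal, a membrane proteolipid, read 6.14, 4.90 and 7.91 and Enpp6, of newly forming oligodendrocytes, 7.09, 6.92 and 8.47. Aspa went the other way, at 5.27, 4.13 and 3.23.

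Array 3 also differed in a measure of RNA quality. The signal of the 3′ end of Gapdh exceeded that of its 5′ end by 1.94, 1.72 and 2.87 on the log2 scale in arrays 1, 2 and 3, a larger gap in array 3. The same gap for Actb was 0.34, 0.32 and 0.37, for Pcx it was 2.37, 2.25 and 1.68, and for Tfrc it was -0.99, -0.67 and -0.65, so the transcripts did not move alike. The part of RNA quality in the differences of array 3 was not tested. Lists of cells from outside the neural lineages had means of 2.95, 3.02 and 3.08 for microglia, 3.44, 3.54 and 3.44 for endothelium, 4.55, 4.52 and 4.01 for pericytes and smooth muscle, and 3.46, 3.69 and 3.38 for fibroblasts. Their part was not tested. When each array's values were ranked, values of equal rank lay 0.0105 from their mean on average and 0.0906 at most, so the arrays share nearly 1 distribution and each difference is relative to the other genes of its array.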

How the data were processed

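The 3 control shRNA arrays were read from the deposited value table. Its values were taken as log2 signals from their range (1.00 to 14.2) because how the authors corrected, summarised and normalized them is not given in the sources used here. Genes were named from the platform annotation, which lists 1 gene for 34958 of 45101 probe sets, several for 932, and leaves 9211 unlisted. For 34754 the gene number was found in RefSeq (GRCm38.p6) and 0 symbols changed.

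An intercept per gene against 3.15 was fitted with limma 3.58.1 in R 4.3.3 (lmFit and eBayes, two-sided, with 2 residual degrees of freedom and 2.93 from the prior). In 20 simulated tables of 18194 genes, each with 100 genes per kind, on average 95.7 genes placed 1 log2 above the reference were called above, 95.7 placed 1 under it were called below, and 5 of those at the reference were called. Differences between arrays were not tested. Figures and promoter searches used Python 3.11.15.

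The lists and members were chosen with earlier results of these data known. Of 630 list entries in 36 lists 577 matched, and 53 were not analysed here. Named were the 25 brightest genes, of each list the first 5 members, the 3 brightest above and every member of a call made 5 times or fewer, the 20 genes above with the widest range, the 5 evenest of the 1000 brightest, and Rest, with predicted gene models passed over. Other genes were chosen after their values were seen, as were the list of immediate early genes, the split of the cell cycle list and a step of 2 log2.

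Alternatives covered the reference, the call rule, the variance model, the choice of probe set, the scaling and leaving out each array. The REST shRNA arrays served only in choosing probe sets in 1 alternative.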

Additional observations from a re-analysis of the deposited data

Results flagged for a closer look

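The levels above use named genes, so 9160 probe sets that the annotation used here does not list, bacterial and other control probe sets aside, stood outside them. They are given here because many carried signal. Of these probe sets 4562 (49.8%) were called above the bacterial reference, 116 had a mean over 10, and the brightest read 13.38. They are unnamed here and were not followed further.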

How the results depend on the processing

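No paired analysis was possible because the values describe 1 group of arrays and no comparison between groups was made. With 4.75 as the reference 6596 genes were below. The members above were then 15 of the lists of other cell types and organs and 14 of the regional lists, and those below were 32 of the lineage, 100 of the other, 68 of the receptor, 82 of the regional and 13 of the cell cycle and interferon lists. With that reference 121 genes above were higher in array 3 by more than 1 log2. With a step of 2 log2 in place of 1, 85 genes were lower in array 3 and 19 higher. Of the 25 brightest genes 11 stayed when probe sets were averaged and 7 when those with shared matching were left out. Leaving out each array in turn gave 9 to 16 lineage members below, 18 to 33 receptor members and 2 to 6 cell cycle and interferon members. Leaving out array 1 or 2, array 3 was lower in 433 to 591 genes and higher in 279 to 315. The median SD ran from 0.1133 to 0.2153, lowest without array 3. These causes were not tested. Over all settings of the main results 173 values moved by 1.5 times or less and 19 by more, and over those of single lists 839 and 97. From above to below went 1616 genes with 4.75 as the reference, 127 with averaged probe sets and 127 without those of shared matching. No setting turned a gene from below to above. Those with 4.75, averaged probe sets or no shared matching could not, because they only raise the reference or lower a mean. Some others, such as leaving out an array, could have. The same call was kept by 76.3% of genes with 4.75 as the reference and by 93% to 99.9% otherwise. Signals near 3.15 limit what can be called, and each fit without an array rests on 2 samples.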
